A study of Mus musculus with 12 samples.

Results

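N-acetylcysteine (NAC) was compared with saline in cardiomyocytes isolated from newborn mouse hearts after a sham procedure. The comparison used 6 of the study's 12 RNA sequencing libraries, chosen by their labels, with 3 libraries of NAC sham hearts and 3 of saline sham hearts. All mice were wild type per the labels. NAC sham pups had an injection on each day from postnatal day 0 to 1 of NAC, at a dose called high, in HEPES-buffered saline with 25 mM HEPES and 140 mM NaCl. Saline sham pups had saline as the control on the same days. Both groups had the sham procedure on day 2, and hearts were taken on day 3. The remaining 6 libraries came from pups with the same injections and, on day 2, a blocked left anterior descending artery of the heart (myocardial infarction, MI), 3 after NAC and 3 after saline. Ventricular tissue was pooled and digested with enzymes, and cardiomyocytes were selected with a kit. The series text names whole ventricles and the sample labels the left ventricle. No source used here says that libraries came from separate litters or cultures, so the p-values rest on library-to-library spread, which may be technical.

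NAC is a thiol that cells convert to cysteine, the amino acid that limits the synthesis of glutathione, their main soluble thiol. Cells regulate their own defences against oxidants largely through NRF2, a transcription factor that binds antioxidant response elements and induces genes of glutathione and thioredoxin metabolism. Newborn mouse cardiomyocytes still divide for a short time after birth, and in the same period they enlarge their calcium stores and ion channels and turn from glycolysis to fatty acid oxidation. The design text of the series sets the sham groups as the uninjured state in which the transcript differences with NAC are to be read.

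The 6 sham libraries held 14644891 to 19774078 reads. Some sample titles begin with a code that no source explains. It was R207 on NAC sham 2 and saline sham 1 and 2, R219 on saline sham 3, and none on NAC sham 1 and 3. Only R207 held both treatments, so for NAC sham 1 and 3 treatment and prefix cannot be told apart. All 30 genes of sarcomere and cardiomyocyte identity were measured, with a summed level of 314791 in NAC sham 2, 468148 in saline sham 2 and 758520 to 819007 in the other 4 libraries. Markers of other cells were present too, among them 20 of 20 endothelial genes (sum 74049 to 156673) and 17 of 17 fibroblast genes (sum 111120 to 168128). Macrophage and monocyte markers summed to 25783 in NAC sham 2 and to 1355 to 2416 elsewhere. Values below are normalized read counts, listed for NAC sham 1, 2 and 3 and then for saline sham 1, 2 and 3, with n = 3 libraries in each group. Log2 differences are NAC minus saline on the log2(value + 1) scale, which understates the change of low genes, and positions are on GRCm38 (mm10).

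No single gene passed the test across all genes. In limma, 0 of 14996 genes (0%) had an adjusted p under 0.05, and the smallest adjusted p was 0.580. At an unadjusted p under 0.05, 530 genes were higher with NAC (3.53%) and 354 were lower (2.36%). All 3 NAC libraries lay above all 3 saline libraries in 803 genes (5.35%) and below them in 675 (4.5%). With 3 libraries a group, the smallest two-sided p of an exact permutation test is 0.1.

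The call depended on 1 library and on the test. Without NAC sham 2, limma called 62 genes higher (0.413%) and 18 lower (0.12%). In that fit the NAC group is NAC sham 1 and 3, whose treatment and prefix cannot be told apart. DESeq2 on the recovered reads of all 12 libraries called 40 higher (0.267%) and 7 lower (0.0467%), and edgeR called 0 (704 higher and 360 lower at an unadjusted p under 0.05). With library quality weights, which were lowest in NAC sham 2 (0.25) and saline sham 3 (0.268), limma called 309 higher (2.06%) and 112 lower (0.747%). With the title prefix as a block, where the estimate is NAC sham 2 minus saline sham 1 and 2 and this lone NAC library is assumed to vary like the others, it called 37 higher (0.247%) and 15 lower (0.1%). The 80 genes called without NAC sham 2 shared 25 genes with the 47 of DESeq2 (31.3% and 53.2% of the lists) and 0 with the 52 of the block. The genes below are therefore given by their values, and none is called by the main test.

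The gene with the smallest p was Pnpla7, and Nceh1, another lipid hydrolase, had the third smallest. Pnpla7, a lysophospholipase (ENSMUSG00000036833, chromosome 2, 24976033 to 25054057), stood at 180.1, 143 and 204 with NAC and at 58.7, 60.5 and 65.5 with saline. The lowest NAC library was above the highest saline library, and the saline values were close together. Its means were 176 ± 30.9 and 61.6 ± 3.49 (SD), a log2 difference of 1.48 (SE 0.25), or 2.80-fold, and 1.25 within prefix R207. Nceh1, which hydrolyses cholesteryl esters at the endoplasmic reticulum (ENSMUSG00000027698, chromosome 3, 27182965 to 27284608), stood at 1137, 782 and 913 against 267, 456 and 224 (log2 difference 1.63, SE 0.30). The groups did not overlap here either. DESeq2 called both genes (adjusted p = 0.000324 for Pnpla7 and 0.00386 for Nceh1), as did limma without NAC sham 2 (0.0347 and 0.0432). The list of neutral lipid hydrolysis and storage as a whole had a median near 0. Of 23 measured members 12 were higher, and the median log2 difference was 0.01 against -0.02 over all genes tested. At an unadjusted p under 0.05, 4 of the 23 were higher, against 3.53% of all genes. Among the 4 was Lpl, the lipoprotein lipase of the vessel wall, at 13711, 8736 and 10328 against 4706, 9593 and 4863, where saline sham 2 lay among the NAC libraries. Cpt1a, which carries long-chain fatty acids into mitochondria, stood at 2184, 2175 and 2080.1 against 1404, 1677 and 1402 (log2 difference 0.53, SE 0.15), and the groups did not overlap. It was the only one of 30 genes of fatty acid oxidation and PPAR targets with an unadjusted p under 0.05. Of that list 15 were higher (median -0.00), and within R207 2 of 30 were (median -0.65).

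Because Pnpla7 had the smallest p of all genes in the comparison with a thiol antioxidant, its promoter is shown with the match to the core of the antioxidant response element. The window runs from 250 bases before to 50 after the start in RefSeq (GRCm38.p6, chr2:24975783-24976082, plus strand), and capitals mark the match to TGACNNNGC, at position -44 from the start.
Pnpla7: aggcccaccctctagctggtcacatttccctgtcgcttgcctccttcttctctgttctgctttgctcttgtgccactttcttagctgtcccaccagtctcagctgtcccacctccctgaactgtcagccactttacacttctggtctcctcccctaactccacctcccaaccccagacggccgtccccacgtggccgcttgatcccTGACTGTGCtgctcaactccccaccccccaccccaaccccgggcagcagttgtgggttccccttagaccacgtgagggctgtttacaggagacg
Searched on both strands, this core was found in 12.4% of all 32851 promoters of the same length and in 14.3% of the 14033 promoters of genes tested. It was in 8 of 29 promoters of the NRF2 target genes (27.6%) and in 5 of 42 of the glutathione genes (11.9%). The promoter of Nceh1 held no match. A match in these letters describes the window and is not a site shown to be bound.

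**Figure D1:**
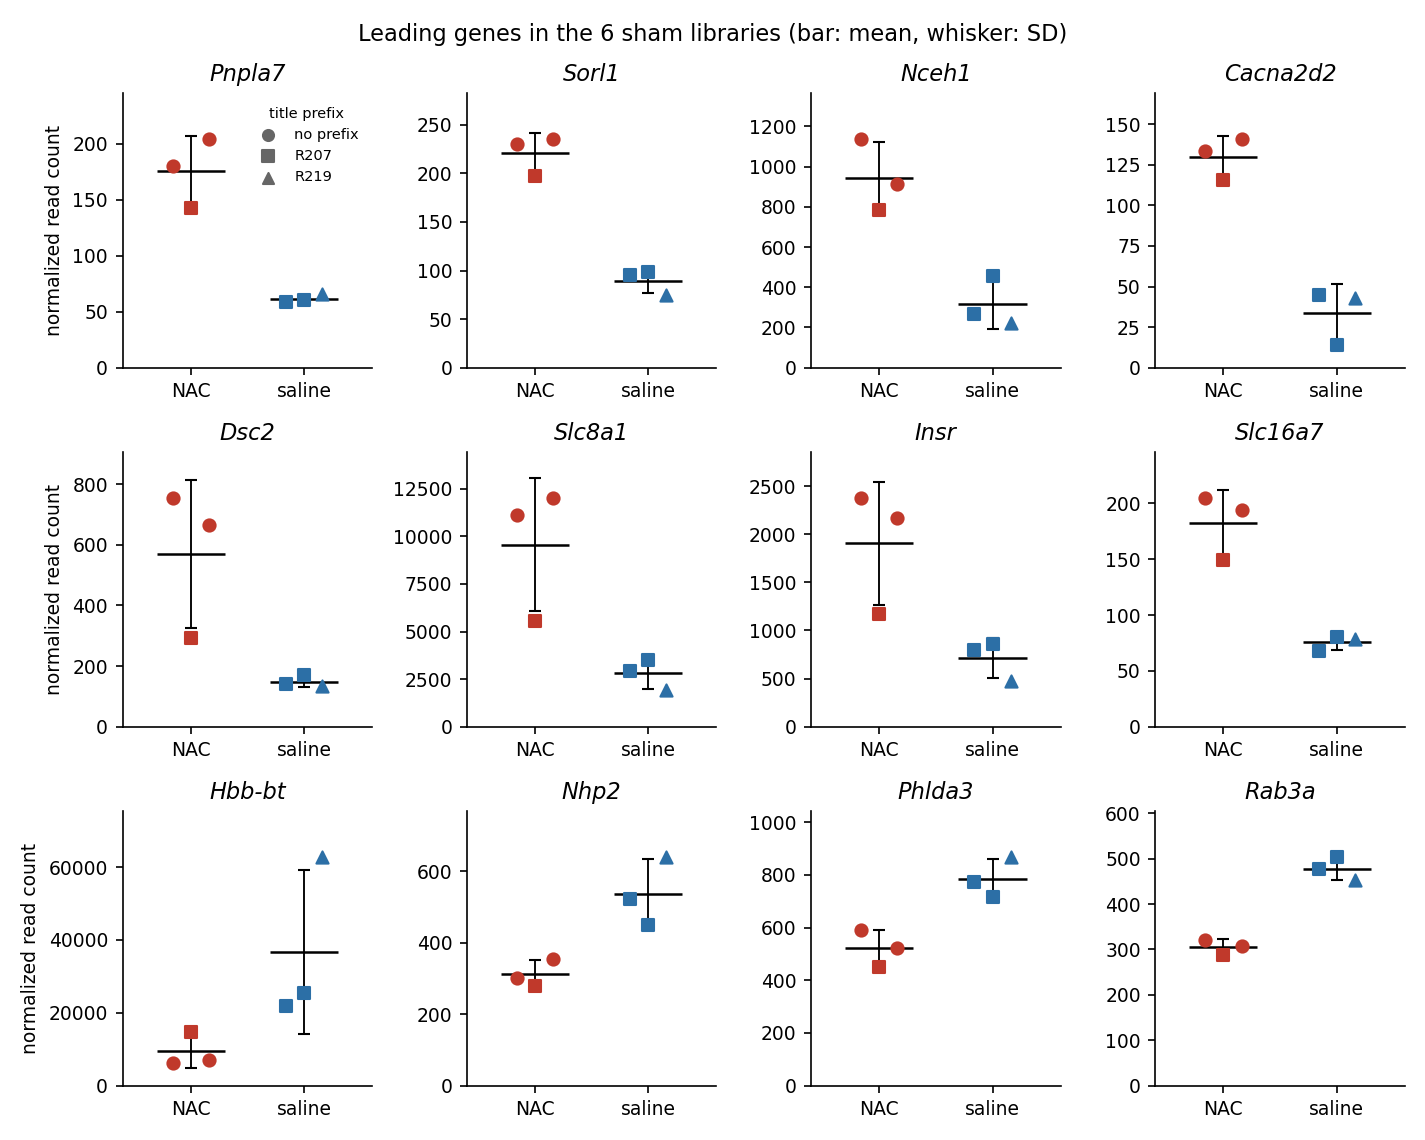
Normalized read counts (linear axes from 0) of 12 of the leading genes in each sham library, with NAC in red and saline in blue, symbols for the title prefix, bars for the mean and whiskers for the SD of 3 libraries. The 3 NAC libraries lie on 1 side of the 3 saline libraries in each panel. In each panel of a higher gene the R207 library of NAC is the NAC library nearest to saline, and in Dsc2, Slc8a1 and Insr it lies far below the other NAC libraries.

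Other leading higher genes were above saline at a like level in all 3 NAC libraries. Sorl1, a receptor that sorts proteins between the Golgi and endosomes (ENSMUSG00000049313, chromosome 9, 41964720 to 42124297), stood at 230.4, 197 and 235.2 with NAC and at 95.7, 98.2 and 75.0 with saline (log2 difference 1.30, SE 0.24). Cacna2d2, an auxiliary subunit of voltage-gated calcium channels, stood at 133, 116 and 141 against 44.9, 13.9 and 42.8 (2.07, SE 0.43). Slc16a7, a monocarboxylate transporter of high affinity, stood at 205, 149 and 194 against 68.1, 80.4 and 78.5 (1.25, SE 0.30). In these 3 genes the difference within prefix R207 was 1.02, 2.16 and 1.0.

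In a second set of leading genes the R207 library of NAC lay much closer to saline. Dsc2, a desmosomal cadherin, stood at 753, 291 and 664 against 141, 171 and 134, and the log2 difference of 1.82 (SE 0.39) was 0.90 within R207. Insr, the insulin receptor, stood at 2375, 1172 and 2167 against 798, 861 and 471, and its difference of 1.4 (SE 0.33) was 0.50 within R207. Slc37a1, a glucose-6-phosphate carrier, stood at 140.3, 43.8 and 116 against 23.2, 27.8 and 28.6, and its 1.72 (SE 0.41) was 0.76 within R207. The NAC libraries were above saline in each, with NAC sham 2 the lowest of the 3. Slfn8, an interferon-inducible member of the schlafen family, was the reverse case, at 22.2, 314 and 27.6 against 7.25, 3.97 and 0, with NAC sham 2 far above the rest. The values of Pcdhga2 (118 ± 32.7 and 43.9 ± 3.29), a protocadherin whose gene shares exons with its cluster, are uncertain because the counting could split reads among the copies. Sema4d, a semaphorin of the cell surface, stood at 588 ± 55.6 against 318 ± 2.42 (SD).

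Receptors for growth factors and for iron were high in NAC sham 1 and 3. Erbb4, the neuregulin receptor of cardiomyocytes (chromosome 1, 68032186 to 69108059), stood at 419, 101 and 436 against 66.0, 88.3 and 29.8. NAC sham 2 was just above the highest saline library, and the log2 difference of 2.22 (SE 0.59) was 0.40 within R207. Igf1 (1879 ± 200.2 and 1132 ± 177), a growth factor, and Igf2r (11927 ± 491 and 8087 ± 1895), which clears its relative Igf2, were also higher in all 3 NAC libraries. Of 30 measured genes of growth factor signalling 15 were higher (median log2 difference 0.02). At an unadjusted p under 0.05, 5 of the 30 were higher and 0 lower, against 3.53% and 2.36% of all genes tested. Tfrc, the transferrin receptor that brings iron into cells, stood at 3255, 1222 and 3146 against 733, 819 and 571 (1.73, SE 0.46). Slc11a2, which moves iron out of endosomes, stood at 477, 547 and 463 against 322, 317 and 337 (0.60, SE 0.19). Both had groups that did not overlap, as had 2 more of the 24 iron and heme genes, all 4 higher with NAC. Over all genes tested 5.35% were higher with such groups. The iron and heme list as a whole had 12 of 24 higher, with a median log2 difference of 0.01. Slc16a1, a carrier of lactate and pyruvate, stood at 2769.6, 1182 and 2433 against 734, 1120.3 and 682. Vldlr, which takes up lipoproteins, stood at 2560.2, 764 and 2750.0 against 573, 576 and 411.

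Calcium handling and ion channel genes had the highest median of the 29 pathway lists, with high values in NAC sham 1 and 3. Of 35 measured members 32 were higher (91.4%, against 48.2% of all genes), with a median log2 difference of 0.98. At an unadjusted p under 0.05, 14 of the 35 were higher and 0 lower, and 9 were higher with groups that did not overlap and 1 lower. Over all genes tested 3.53% were higher and 2.36% lower at that p, and 5.35% and 4.5% had such groups. Each library's median over members, relative to the saline mean, was 1.45 and 1.48 in NAC sham 1 and 3, -0.21 in NAC sham 2 and -0.08 to 0.09 in the saline libraries. Within prefix R207 the list's median was -0.15, with 15 of 35 higher. Without NAC sham 2 it was 1.52, and 10 members were called higher, against 0.413% of all genes tested in that fit.

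The members of that list spanned entry, storage and release of calcium. Slc8a1, the sodium-calcium exchanger (ENSMUSG00000054640, chromosome 17, 81373105 to 81738377), stood at 11109.8, 5548 and 12009 against 2925, 3529.6 and 1941 (log2 difference 1.74, SE 0.40, and 0.79 within R207). Cacna1c, the pore of the L-type calcium channel, stood at 4234, 1062 and 3999.9 against 1013, 813 and 658. Kcnj2, a channel that holds the resting potential, stood at 661, 269 and 567 against 194, 245 and 145. In the last 2 genes NAC sham 2 was only just above the highest saline library. The next 4 members were named after their values were seen. Atp2a2, the calcium pump of the sarcoplasmic reticulum, stood at 73543, 20164 and 66008 against 14629.8, 17947 and 15028. Casq2, which binds calcium in that store, stood at 10373, 3069.8 and 9798 against 1866, 2401 and 3355. Ryr2, the release channel, stood at 14176, 4116 and 13350.1 against 5152, 4614 and 2359. In Casq2 and Ryr2 NAC sham 2 lay inside the saline range, and in Atp2a2 just above it. Gja1, the gap junction protein connexin 43, stood at 8103, 2525 and 8189.5 against 2380.4, 2296 and 2448. Without NAC sham 2 the adjusted p in limma was 0.0432 for Slc8a1, 0.0390 for Cacna1c, 0.0412 for Kcnj2, 0.0360 for Atp2a2, 0.0412 for Casq2, 0.0432 for Ryr2 and 0.0423 for Gja1. That fit leaves out the NAC library that was lowest in each of these genes. The 2 NAC libraries that remain have no title prefix, so treatment and prefix cannot be told apart in these p-values. Abcc9, a subunit of the ATP-sensitive potassium channel, stood at 5160.1 ± 1027 against 2803 ± 877 (SD).

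Sarcomere genes were low in NAC sham 2 too, and had a median near 0 over the groups. Of 30 measured members 14 were higher (median log2 difference -0.13), and the median was -0.93 within R207, with 1 of 30 higher, and 0.43 without NAC sham 2. The low sum of these markers in NAC sham 2 (314791) stood beside an ion channel median of -0.21 there, against 1.45 and 1.48 in NAC sham 1 and 3. Saline sham 1, 2 and 3 had ion channel medians of 0.09, -0.08 and 0.02, at sums of 758520, 468148 and 781888. The part of this sum in the ion channel values was not tested. Fewer cells of a type and less RNA per cell cannot be told apart in such libraries. Myh7, the slow myosin heavy chain, stood at 19098, 3363 and 18265 against 5264, 3619 and 2503, with NAC sham 2 inside the saline range. Its log2 difference of 1.54 (SE 0.54) was -0.38 within R207. Myh6, the fast chain, stood at 164616, 63504 and 169956 against 159332, 84669 and 62701 (0.36, SE 0.52), and the groups overlapped. Acta1, skeletal alpha actin, was lower with NAC, at 1374, 815 and 1278 against 2756, 1511 and 1867 (-0.81, SE 0.28).

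**Figure D2:**
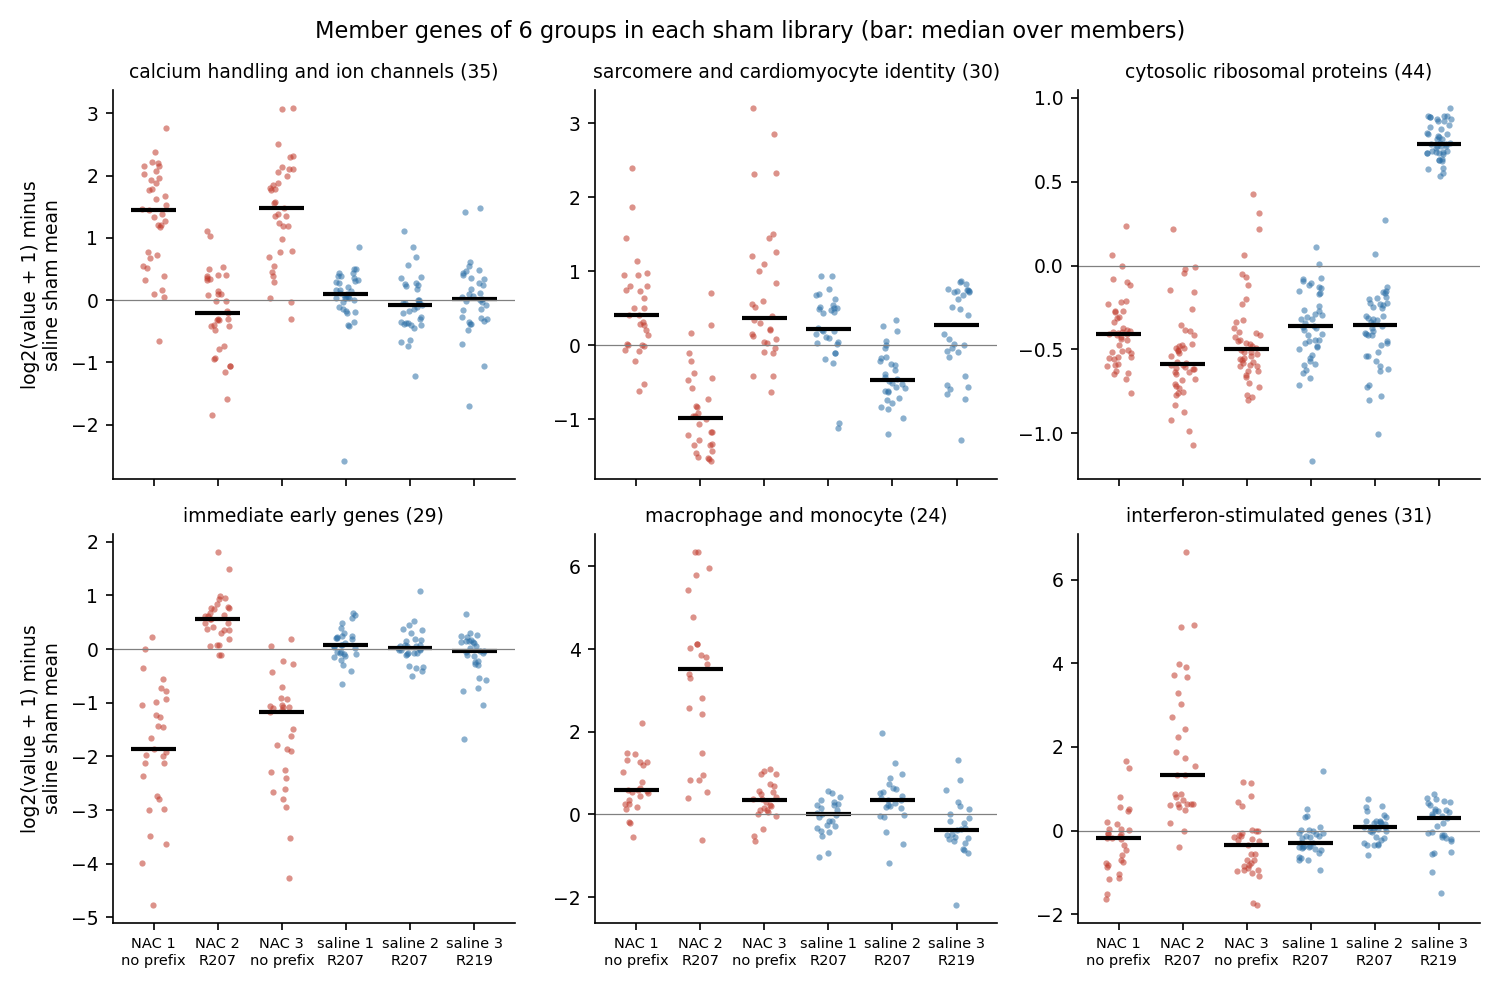
Member genes of 6 lists in each sham library, as log2(value + 1) minus the gene's mean over the 3 saline libraries, with NAC in red, saline in blue, 1 point per gene and bars for the median over members. The ion channel medians are 1.45 and 1.48 in NAC sham 1 and 3 and -0.21 in NAC sham 2, the macrophage median is 3.51 in NAC sham 2, and the ribosomal protein median is 0.73 in saline sham 3.

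Markers of the atria and the conduction system, which a ventricular isolate should hold few of, were higher in 13 of 14 (median log2 difference 0.91). Of the 14, 3 were higher at an unadjusted p under 0.05, against 3.53% of all genes tested. Their summed level was 3268 to 13584 with NAC and 2615 to 5967 with saline, highest in NAC sham 3. Bmp10, a growth factor of the atria in late development, stood at 115, 70.1 and 48.1 against 2.90, 11.9 and 10.7, and the groups did not overlap. Nppa, the atrial natriuretic peptide, stood at 106, 70.1 and 419.6 against 37.7, 49.6 and 92.8, where NAC sham 2 lay below saline sham 3. Nppb, its relative and a sign of cardiac stress, stood at 897, 1059.8 and 1562 against 615, 641 and 536 (0.94, SE 0.43). Of 16 epicardial and mesothelial markers 10 were higher (median 0.21), with a sum of 12946 in NAC sham 3 and of 3982 to 6098 elsewhere. Tbx18, a factor of the epicardium, stood at 411, 378 and 440.1 against 212, 281 and 177. The part of atrial and epicardial cells in these values was not tested.

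Red cell transcripts were lower with NAC, and the globin share separated the groups within R207 as well. Globin genes took 1.07%, 2.68% and 1.2% of reads with NAC and 3.74%, 3.71% and 6.54% with saline. Every NAC library was below every saline library, and within prefix R207 the shares were 2.68% against 3.74% and 3.71%. The means were 1.65 ± 0.893% and 4.66 ± 1.63% (SD), a 2.83-fold ratio, and the two-sided exact permutation test gave p = 0.1, the smallest it can give. Outside the mitochondrial transcripts the globin share was 2.02 ± 0.995% against 5.80 ± 2.82%. Hbb-bt, an adult beta globin (ENSMUSG00000073940, chromosome 7, 103812524 to 103813996), stood at 6272, 14816 and 7167 against 21942, 25536 and 62721 (log2 difference -1.91, SE 0.42). Hbb-bs, its neighbour (chromosome 7, 103826534 to 103828096), stood at 91500.5, 183407 and 85104 against 241228, 295536 and 752508. NAC sham 2 was the highest NAC library and saline sham 3 the highest saline library in both. The adult globin genes exist in near-identical copies, so the counting could split reads between them. Over the list of red cell genes 21 of 25 were lower (median -0.63). At an unadjusted p under 0.05, 8 of the 25 were lower, against 2.36% of all genes tested. The list's median within R207 was 0.10. The globins were thus lower within R207 while the list as a whole was not.

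The promoters of Hbb-bt, Hbb-bs and Hba-a1 are shown because they were the 3 red cell genes that DESeq2 called. Windows run from 250 bases before to 50 after the RefSeq start (GRCm38.p6), and capitals mark matches to the GATA site AGATAA or TGATAA, on either strand.
Hbb-bt: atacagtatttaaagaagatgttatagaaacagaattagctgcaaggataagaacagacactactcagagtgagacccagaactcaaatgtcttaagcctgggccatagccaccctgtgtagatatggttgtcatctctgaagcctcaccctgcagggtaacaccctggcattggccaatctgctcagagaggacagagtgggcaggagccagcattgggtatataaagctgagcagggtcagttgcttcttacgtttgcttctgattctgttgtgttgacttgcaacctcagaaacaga
Hbb-bs: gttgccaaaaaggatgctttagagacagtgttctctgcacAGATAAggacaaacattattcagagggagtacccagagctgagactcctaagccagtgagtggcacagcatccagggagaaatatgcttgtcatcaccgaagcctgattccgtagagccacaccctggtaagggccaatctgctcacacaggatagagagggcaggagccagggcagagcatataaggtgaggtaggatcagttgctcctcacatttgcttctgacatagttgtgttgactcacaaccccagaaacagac
Hba-a1: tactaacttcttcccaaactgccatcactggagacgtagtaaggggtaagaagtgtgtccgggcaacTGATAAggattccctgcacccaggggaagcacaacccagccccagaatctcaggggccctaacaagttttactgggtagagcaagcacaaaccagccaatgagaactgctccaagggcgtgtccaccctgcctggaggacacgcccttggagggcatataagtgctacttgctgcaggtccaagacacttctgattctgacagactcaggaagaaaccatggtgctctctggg
They lie at chr7:103813874-103814173 (minus strand), chr7:103827879-103828178 (minus strand) and chr11:32283422-32283721 (plus strand). Hbb-bs has its match at position -210 and Hba-a1 at -183, and Hbb-bt has none in this window. The site was in 12 of 20 red cell promoters (60%), in 18.6% of all promoters and in 10.7% of those of genes tested.

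**Figure D3:**
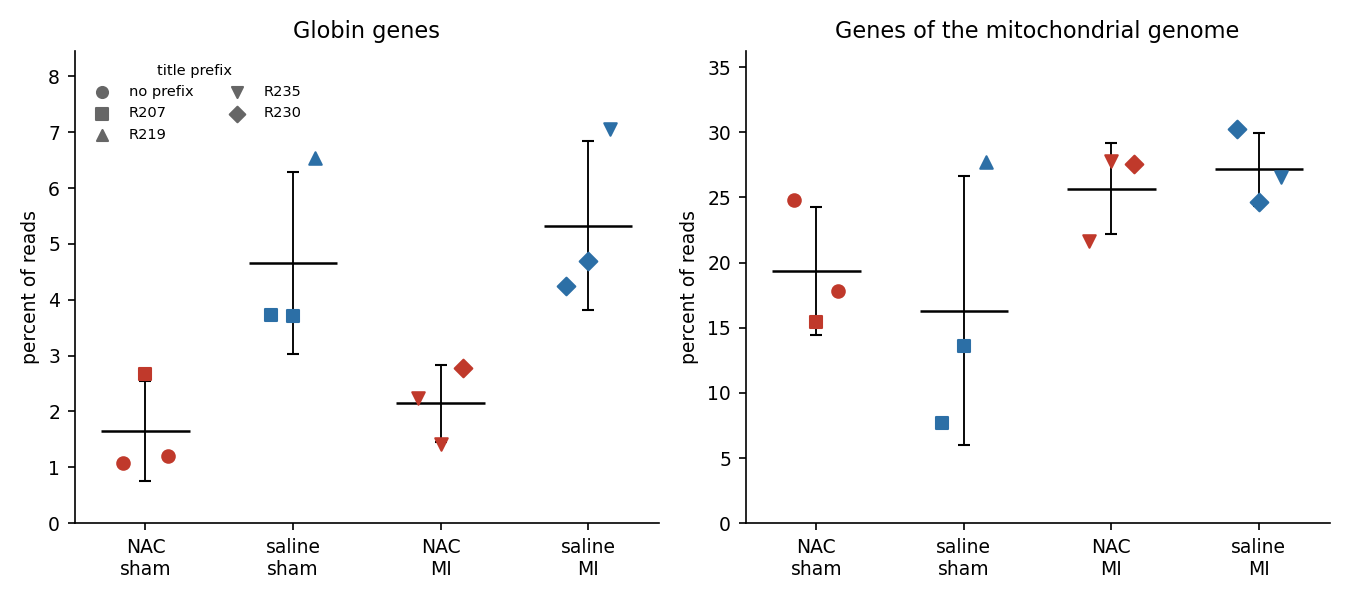
Percent of reads from globin genes (left) and from the mitochondrial genome (right) in each of the 12 libraries, with NAC in red and saline in blue, symbols for the title prefix, bars for the mean and whiskers for the SD of 3 libraries. Globin shares are 1.07% to 2.68% in NAC sham and 3.71% to 6.54% in saline sham, while mitochondrial shares overlap.

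Transcripts of the mitochondrial genome showed no such separation. They took 24.8%, 15.4% and 17.8% of reads with NAC and 7.65%, 13.6% and 27.7% with saline, and saline sham 1 and 3 were the lowest and the highest of the 6. The means were 19.4 ± 4.90% and 16.3 ± 10.3% (SD, two-sided exact permutation p = 0.7). Nuclear-encoded subunits of the respiratory chain had a median log2 difference of -0.15, with 14 of 39 higher and 0 at an unadjusted p under 0.05. The sign turned with single libraries, to 0.29 without NAC sham 2 and 0.20 without saline sham 3, and within R207 the median was -0.60 with 1 of 39 higher. Cox18, which inserts a subunit of cytochrome c oxidase into the inner membrane, was lower, at 234, 242 and 233 against 369.7, 321 and 374 (-0.58, SE 0.18).

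Ribosomal protein genes were lower with NAC, by much less once saline sham 3 was left out. Of 44 measured members 41 were lower (median log2 difference -0.49), 10 at an unadjusted p under 0.05 and 13 with groups that did not overlap. Over all genes tested 2.36% were lower at that p and 4.5% with such groups. Without saline sham 3 the median was -0.13, and that library's own median over members was 0.73 above the saline mean, where the other 5 libraries had -0.35 to -0.59. Rpl8 stood at 7133, 6528 and 7137 against 10476, 7921 and 16136, and Rps19 at 3305, 2819 and 3119.7 against 4218, 3749.8 and 8685. Saline sham 3 was the highest in both, though the NAC libraries were below all saline libraries. Saline sham 3 also differed by transcript length. In 5 classes of genes from the shortest to the longest exons, the median log2 difference was -0.23, -0.13, -0.05, 0.05 and 0.21. Without saline sham 3 it was -0.04, -0.05, -0.04, -0.02 and 0.02. The ion channel list, with a median exon length of 5215 bases against 4247.5 over all genes tested, had a median of 0.92 without that library. With the exon length trend removed, an alternative chosen after seeing the data, the list's median was 0.79, with 31 of 35 higher.

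The leading lower genes, besides the globins, had roles of several kinds. Nhp2, a protein of the particles that modify ribosomal RNA, stood at 302, 279 and 355 against 523, 449.5 and 639 (log2 difference -0.78, SE 0.20, and -0.64 without saline sham 3). The pseudogenes Rps2-ps10 (1654 ± 193 and 3641 ± 1259) and Rpl34-ps1 (414 ± 58.1 and 1055 ± 598) were lower in all 3 NAC libraries, and their reads may belong to the parent genes. Rab3a, a small GTPase of vesicle release, stood at 322, 288 and 306 against 476, 503 and 453, with small spread in both groups (-0.64, SE 0.19). Phlda3, a p53 target that restrains Akt, stood at 591, 452 and 522 against 775, 716 and 868 (-0.60, SE 0.16). Bcl2l1, the survival protein Bcl-xL that red cell precursors also need, stood at 482, 819 and 505 against 847, 1230.4 and 956. Ddah2, which breaks down an inhibitor of nitric oxide synthesis, stood at 1469.5 ± 243 against 2314 ± 537 (SD). Fam213b (209.9 ± 56.4 and 493 ± 185), N4bp3 (769 ± 135 and 1180.1 ± 69.0) and Pter (121 ± 9.24 and 209 ± 47.6) completed the 12 leading lower genes.

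Genes that handle thiols and oxidants, the metabolism closest to NAC, had small median differences. Of 35 measured genes of glutathione synthesis and use 27 were lower (median log2 difference -0.24), and without saline sham 3 the median was -0.04. At an unadjusted p under 0.05, 4 of the 35 were lower, against 2.36% of all genes tested. Gclc and Gclm, the subunits of the enzyme that limits glutathione synthesis, had differences of -0.14 (95% interval -0.75 to 0.46) and -0.24 (-0.75 to 0.28). Gclc stood at 296, 478 and 293 against 360.3, 473 and 328, and Gclm at 623, 914 and 588 against 690.1, 1036 and 768. The groups overlapped in both, with NAC sham 2 the highest NAC library. Gsr, glutathione reductase, stood at -0.16 (-0.50 to 0.18). Gpx1, the main glutathione peroxidase and abundant in red cells, stood at 3242, 5732 and 3225 against 4489.8, 7637 and 13852 (-1.0, SE 0.36). Gstm2, a glutathione transferase, stood at 234, 308 and 339 against 407, 377 and 570.0 (-0.61, SE 0.22).

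Cystine uptake and sulfur amino acid genes were mixed. Slc1a1, which takes up glutamate and cysteine, stood at 32.7, 18.4 and 49.0 against 7.97, 6.95 and 10.7 (log2 difference 1.76, SE 0.51). The groups did not overlap, at a low level in all libraries. Slc7a11, the cystine importer, stood at 21.1, 42.9 and 12.5 against 2.17, 13.9 and 19.0 (1.26, SE 0.72), and the groups overlapped. Mpst, which makes sulfide from cysteine, was lower, at 255, 313 and 277 against 357, 325 and 653. Over the list of cystine uptake and sulfur amino acid metabolism 9 of 22 were higher, with a median of -0.17. Of the 22, 1 was higher and 1 lower at an unadjusted p under 0.05, against 3.53% and 2.36% of all genes tested.

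NRF2 targets and antioxidant enzymes had small or inconsistent differences. Of 28 NRF2 targets 21 were lower (median log2 difference -0.17), and the median was 0.16 within R207. Of the 28, 1 was lower at an unadjusted p under 0.05, against 2.36% of all genes tested. Nqo1, a quinone reductase, stood at 178, 86.7 and 175 against 188, 105 and 299.9. Hmox1, heme oxygenase 1, stood at 234, 1798 and 136 against 294, 237 and 378, so that NAC sham 2 alone was high. The difference in Hmox1 was 0.37 (95% interval -1.30 to 2.05) and -0.73 without NAC sham 2. Srxn1, which repairs peroxiredoxins, stood at -0.60 (-1.28 to 0.08), Txnrd1, thioredoxin reductase, at -0.05 (-0.46 to 0.35) and Prdx4, a peroxiredoxin of the secretory pathway, at -0.41 (-0.87 to 0.06). Of 22 thioredoxin and peroxiredoxin genes 19 were lower (median -0.21), and of 10 superoxide dismutases, catalase and metallothioneins 10 were lower (median -0.28). Without saline sham 3 these medians were -0.05 and -0.03. Sod2, the mitochondrial superoxide dismutase, stood at -0.29 (-0.85 to 0.27) and Cat, catalase, at -0.14 (-0.60 to 0.32). The intervals of Gclc, Gclm, Gsr, Txnrd1, Sod2 and Cat lay within 1 log2 unit of 0, while those of Hmox1 and Slc7a11 reached beyond 2.

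**Figure D4:**
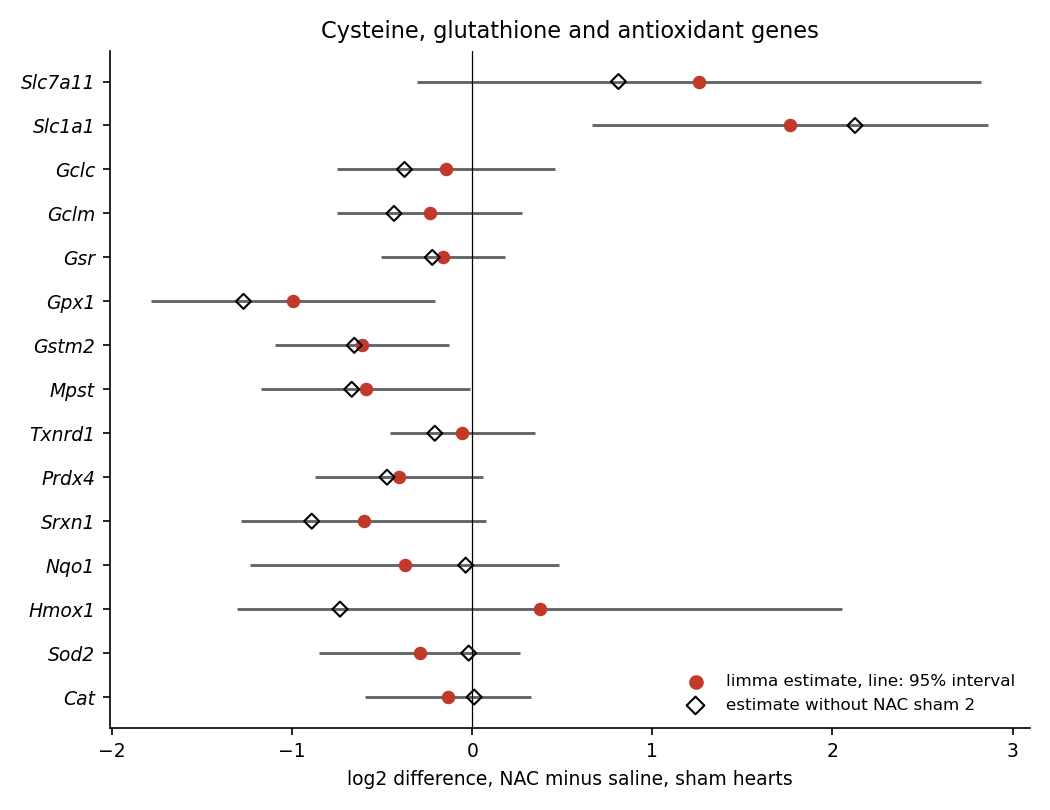
Log2 difference (NAC minus saline in sham hearts) of 15 genes of cysteine, glutathione and antioxidant metabolism, with red points for the limma estimate, lines for its 95% interval and open diamonds for the estimate without NAC sham 2. Slc1a1 lies at 1.76 and Gpx1 at -1.0, and Hmox1 moves from 0.37 to -0.73 without that library.

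Stress responses were mixed. Gdf15, a cytokine of cell stress, stood at 35.1, 80.6 and 37.4 against 21.7, 14.9 and 16.7 (log2 difference 1.38, SE 0.60), and the groups did not overlap. Hsp90b1, a chaperone of the endoplasmic reticulum, stood at 4106, 4575 and 4442 against 2407, 3102 and 2286 (0.76, SE 0.24), and Canx, calnexin, at 4865, 4647 and 4878 against 3097, 4076 and 3135. Of 25 heat shock and chaperone genes 11 were higher (median -0.01), and of 22 ATF4 targets 18 were lower (median -0.24). At an unadjusted p under 0.05, 3 of the 22 ATF4 targets were higher and 2 lower, against 3.53% and 2.36% of all genes tested. Within R207 their median was -0.06, with 9 of 22 higher.

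Immediate early genes were low in NAC sham 1 and 3 and high in the other 4 libraries. Of 29 measured members 25 were lower (median log2 difference -0.82). At an unadjusted p under 0.05, 7 of the 29 were lower, against 2.36% of all genes tested. The median over members relative to the saline mean was -1.86 and -1.17 in NAC sham 1 and 3 and 0.57 in NAC sham 2. Within prefix R207 the list's median was 0.50, with 27 of 29 higher. Without NAC sham 2 it was -1.57, and 8 members were called lower, against 0.12% of all genes tested in that fit. Egr1, a transcription factor switched on within minutes of a stimulus, stood at 1125, 17948 and 2004 against 15042, 13342 and 13504. Junb, a partner in the AP-1 factor, stood at 865, 7181 and 1078 against 6933, 5433 and 8374. In both, NAC sham 2 lay among or above the saline libraries, and without it the adjusted p in limma was 0.0458 for Egr1 and 0.0399 for Junb. Those p-values leave out the NAC library that went the other way and rest on NAC sham 1 and 3, where treatment and prefix cannot be told apart. Within R207 the log2 difference was 0.341 in Egr1 and 0.227 in Junb.

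Genes of white blood cells and of the interferon response set NAC sham 2 apart. Of 24 macrophage and monocyte markers 23 were higher (median log2 difference 1.5), and the median was 3.34 within R207 and 0.47 without NAC sham 2. At an unadjusted p under 0.05, 2 of the 24 were higher, against 3.53% of all genes tested. Cybb, the oxidase subunit of phagocytes, stood at 97.1, 1539 and 72.2 against 29.0, 34.7 and 29.8. Csf1r, the receptor that sustains macrophages, stood at 343, 1869.9 and 249 against 184, 169 and 108. In both, NAC sham 1 and 3 were also above all saline libraries, at a small part of the level of NAC sham 2. Of 31 interferon-stimulated genes 19 were higher (median 0.15), and within R207 30 were (median 1.57). Mx1, an antiviral GTPase, stood at 7.02, 285 and 5.35 against 6.52, 1.98 and 0, and Ifit2, another interferon-induced protein, at 299, 604 and 314 against 265, 236 and 143.

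Neutrophil markers were at low levels but higher in 16 of 16 (median log2 difference 0.98), 5 at an unadjusted p under 0.05 and 4 with groups that did not overlap. Over all genes tested 3.53% were higher at that p and 5.35% with such groups. The neutrophil markers summed to 646 to 1711 with NAC and 195 to 1056 with saline. Saline sham 1 was the lowest library, and without it the median was 0.26. Elane, neutrophil elastase, stood at 14.0, 33.3 and 17.8 against 0, 2.98 and 0, and Camp, cathelicidin, at 39.8, 30.7 and 22.3 against 5.80, 20.8 and 2.38. Csf3r, the G-CSF receptor, stood at 35.1, 160.3 and 24.1 against 5.80, 2.98 and 22.6. Endothelial markers were lower in 17 of 20 (median -0.32), but within R207 15 of 20 were higher (0.24), and without NAC sham 3 the median was -0.11. Without NAC sham 2 it was -0.58. Lymphocyte and mast cell markers were lower in 10 of 12 (median -0.49), but within R207 8 of 12 were higher (0.25). Their median was -1.09 without saline sham 1 and -0.17 without saline sham 3. Fibroblast (median 0.00) and mural markers (0.09) had medians near 0.

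**Figure D5:**
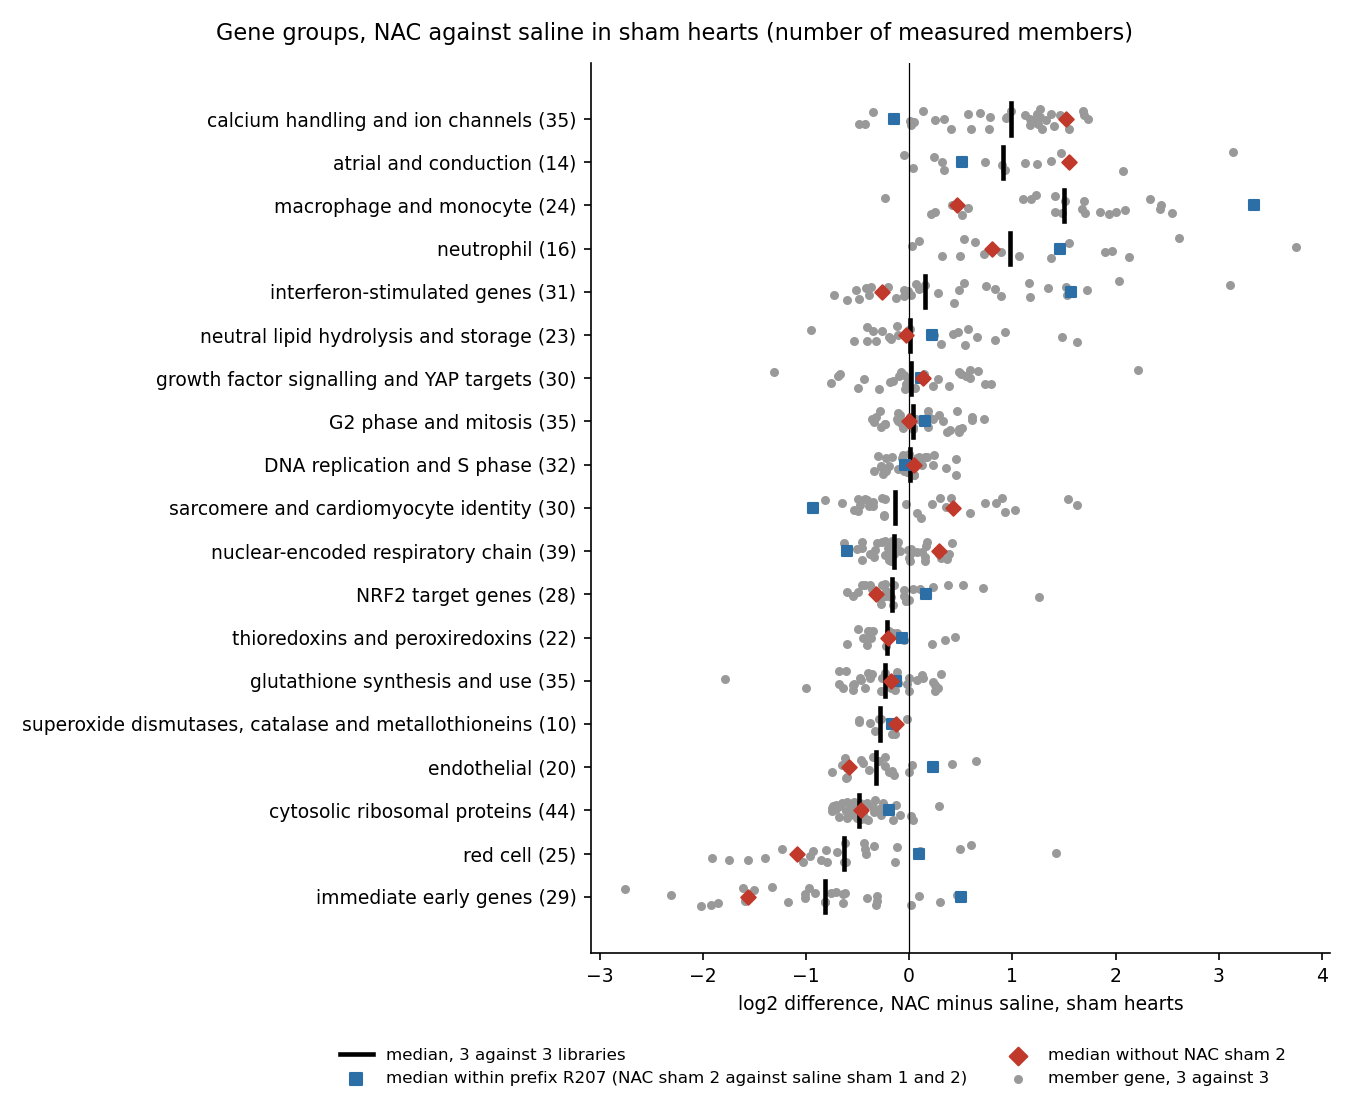
Log2 difference (NAC minus saline in sham hearts) of each measured member of 19 lists in grey, with black bars for the list's median, blue squares for the median within prefix R207 and red diamonds for the median without NAC sham 2. The ion channel list lies at 0.98, -0.15 and 1.52, immediate early genes at -0.82, 0.50 and -1.57 and macrophage markers at 1.5, 3.34 and 0.47.

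Cell cycle genes had medians close to 0 in sham hearts. Of 32 genes of DNA replication and S phase 16 were higher (median log2 difference 0.01), and of 35 genes of G2 phase and mitosis 20 were (median 0.04). Of the 35, 1 was higher at an unadjusted p under 0.05, against 3.53% of all genes tested. That gene was Hmmr, a spindle-associated protein, at 716, 665 and 730.5 against 474, 467 and 346 (0.73, SE 0.21). Mki67, a marker of dividing cells, stood at 2872, 4078 and 3843 against 3703, 3022 and 1139, with saline sham 3 alone low (0.61, 95% interval -0.27 to 1.48). Ccnb1, the mitotic cyclin, had a difference of -0.11 (-0.57 to 0.35) and Cdk1, its kinase, -0.27 (-0.65 to 0.11). CDK inhibitors and p53 targets were lower in 20 of 27 (median -0.23). At an unadjusted p under 0.05, 4 of the 27 were lower, against 2.36% of all genes. With groups that did not overlap 5 of the 27 were lower, against 4.5% of all genes. The median was -0.03 within R207, with 13 of 27 higher, -0.10 with the exon length trend removed and -0.13 without saline sham 2. Cdkn1a, which encodes p21, stood at 491, 1407 and 445 against 852, 1605 and 847, and the groups overlapped (-0.64, 95% interval -1.47 to 0.20).

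The libraries of MI hearts, which share none with the sham groups, were compared with NAC and saline in the same way. Their groups also differed in X- and Y-linked sex genes, whose mean log2 level was 2.62 and 2.63 in NAC MI 1 and 2 against 7.16 to 8.02 in the other 4, and 7.89 to 9.64 in the sham libraries. Of these 5 genes 1 was higher with NAC in MI hearts, and their median log2 difference was -5.16, so the mean level joins members that go opposite ways. The part of the sex gene difference in the values of MI hearts was not tested. Of the 803 genes with all NAC sham libraries above saline, 622 (77.5%) were also higher with NAC in MI hearts, against 66.1% of all genes higher in sham. Of the 675 lower genes 553 (81.9%) were lower there, against 68.7%. Groups did not overlap in the same direction in both surgeries for 183 higher genes (22.8% of the sham genes and 13.8% of the MI genes) and 210 lower genes (31.1% and 12.2%). The share of all genes with such groups in MI was 8.84% higher and 11.5% lower. Among the named genes, Nceh1, Cacna2d2, Dsc2, Slc8a1, Insr, Slc37a1, Slc16a7, Erbb4, Kcnj2 and Atp2a2 were in the first set, and Hbb-bt, Hbb-bs, Nhp2, Phlda3, Bcl2l1 and Ddah2 in the second. In MI hearts each of the prefixes R230 and R235 held both treatments. With prefix as a block, the ion channel list had a median of 0.41 there, with 28 of 35 higher, and the log2 difference was 0.81 in Atp2a2, 1.21 in Slc8a1 and -1.97 in Hbb-bt. The mean log2 level of the ion channel list was 9.54, 10.04 and 8.92 in NAC MI 1, 2 and 3 and 8.81 to 9.08 with saline. NAC MI 3 thus lay inside the saline range, and NAC MI 1 and 2 were the libraries with the low sex gene level. The globin share in MI hearts was 2.14 ± 0.685% with NAC and 5.33 ± 1.51% with saline (SD).

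Pnpla7 and Sorl1, the genes with the smallest p in sham hearts, showed no such recurrence. In MI hearts their log2 differences were -0.09 and -0.10. The difference between surgeries had an unadjusted p of 0.000619 for Pnpla7 and 0.00106 for Sorl1 in limma, and an adjusted p of 0.9999 for both. The sham difference by which both genes were picked enters that test, so its unadjusted p is not free of the choice. Across all genes limma and edgeR called 0 differences between surgeries (305 and 376 at an unadjusted p under 0.05). DESeq2 called 1, Gm21188, which had reads in sham hearts only in NAC sham 2 (92.0). The list of G2 phase and mitosis, at 0.04 in sham hearts, was at 0.65 in MI hearts with 35 of 35 higher. In 9 of its 35 members, Ccnb1 and Cdk1 among them, the difference between surgeries had an unadjusted p under 0.05, and 0 passed over all genes. Macrophage markers were higher with NAC in 23 of 24 in sham hearts and in 0 of 24 in MI hearts (median -1.33). In both surgeries 1 NAC library stood apart. The mean log2 level of these markers was 8.52 in NAC sham 2, while the remaining sham libraries had 5.01 to 5.98. It was 5.24 in NAC MI 2, while the remaining MI libraries had 8.16 to 8.89.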

How the data were processed

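RNA from isolated newborn cardiomyocytes was sequenced as poly(A) libraries. The authors' deposited signal values were gene counts divided by library size factors, for 52336 genes in 12 libraries. Tools listed per the submitters' processing notes include STAR 2.7.10a, with DESeq2 1.44.0 and the build mm10. The counting tool, annotation and strand setting are not given in the sources used here. Multiplying by the recovered size factors gave whole reads for all values within 0.01 read. Genes with a mean value of at least 10 (14996) were tested with limma 3.58.1 (R 4.3.3) on log2(value + 1), with 4 group means over 12 libraries, 8 residual degrees of freedom and Benjamini-Hochberg adjustment. edgeR 4.0.16 and DESeq2 1.42.0 on the recovered reads, library quality weights, a title prefix block, other filters and scalings and leaving out libraries were alternatives. The exon length correction was chosen after seeing the data.

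The named genes are the 12 smallest p each way with groups that do not overlap, a higher group mean of 50 or more and a symbol that is no predicted, clone or Rik name, the 3 smallest p of each of 41 lists, and 21 genes named in any case. Atp2a2, Casq2, Ryr2, Gja1 and Gm21188 fall outside this rule. Members and lists were chosen with earlier results of these data known. Of 984 listed symbols 977 matched the table. Gene positions are from GENCODE M21 and promoters from RefSeq GRCm38.p6. The limma script was checked on simulated data.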

Additional observations from a re-analysis of the deposited data

Results flagged for a closer look

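Csf3r, the receptor for the growth factor G-CSF that marks neutrophils, was flagged because its difference with NAC had opposite signs after the surgeries. All 3 NAC sham libraries were above all 3 saline sham libraries, and all 3 NAC libraries of MI hearts were below all 3 saline ones. In sham hearts saline sham 3 lay just below NAC sham 3. Of the 803 genes with all NAC sham libraries above saline, 15 (1.87%) had groups that did not overlap the other way in MI hearts. Its log2 difference was 2.61 in sham hearts and -1.81 in MI hearts, so the MI value minus the sham value was -4.42. The limma interaction test gave an unadjusted p of 0.00366 and an adjusted p of 0.9999, so the difference between surgeries did not pass over all genes. Csf3r was flagged by this same difference, so the unadjusted p is not free of that choice. The highest sham value, 160.3, was in NAC sham 2, the library with the high macrophage markers, and the sham difference without that library was 1.80. Its part in the result was not tested.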

How the results depend on the processing

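The number of genes with an adjusted p under 0.05, 0 in limma, was 421 with library quality weights, 47 in DESeq2, 52 with the title prefix as a block and 20 without NAC sham 2 and saline sham 3 together. Leaving out 1 library at a time gave 0 to 80, with 80 only without NAC sham 2. The difference between surgeries had 17 calls with the prefix as a block and 1 in DESeq2. The count of genes with groups that do not overlap, 1478, ranged from 2147 (without NAC sham 3) to 4231 (without NAC sham 2) with 1 library left out, and was 6881 without both libraries, where fewer libraries make separation easier. Tests, weights, covariates and blocks give no value for this count. The difference in mitochondrial share, 3.03 percentage points, ranged from -1.30 (without saline sham 1) to 8.73 (without saline sham 3). Some genes reversed, and the cause was not tested. With the prefix as a block the log2 difference was 0.115 in Txnrd1, -0.244 in Ryr2, 0.267 in Cdkn1a, 0.113 in Gclm, 0.211 in Gclc, 0.0195 in Srxn1, 0.341 in Egr1, -0.871 in Myh6, 0.177 in Ccnb1, 0.227 in Junb and -0.376 in Myh7. With the globin share as a covariate it was 0.109 in Cat, 0.163 in Gclm, 0.0610 in Gclc, -0.597 in Myh6 and 0.111 in Gpx1. With quality weights it was -0.510 in Hmox1 and 0.0999 in Cat. Without NAC sham 2 and saline sham 3 together it was 0.325 in Nqo1, -0.562 in Hmox1, 0.104 in Sod2, 0.242 in Cat and -0.00961 in Mki67. With the exon length trend removed, an alternative chosen after seeing the data, Cat was at 0.00183. With 1 library left out, Hmox1 ranged from -0.735 to 1.12, Txnrd1 from -0.208 to 0.0781, Cat from -0.305 to 0.0959, Gclc from -0.377 to 0.00908 and Ccnb1 from -0.283 to 0.0995. Of the values of the named genes under the alternatives, 1375 kept their direction and side of the threshold, 87 came past it and 32 reversed. The depth of 14644891 to 19774078 reads leaves low genes such as Slc1a1 and Elane with few reads. No paired analysis was possible because replicates were numbered in accession order, and the only block the titles offer is the prefix, which joins both treatments for 3 of the 6 sham libraries.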

Other observations

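Genes of glycolysis were mostly lower with NAC in sham hearts. Of 24 measured identifiers 17 were lower (median log2 difference -0.23). At an unadjusted p under 0.05, 2 of the 24 were lower and 2 higher, against 2.36% and 3.53% of all genes tested. Ldha, which makes lactate from pyruvate, stood at 12854, 10443 and 10796 with NAC and 14839, 13846 and 19762 with saline, and the groups did not overlap. Its log2 difference was -0.50 (SE 0.22) in sham hearts and -0.04 in MI hearts. Tpi1, a glycolytic isomerase, stood at 9065, 4994 and 8592 against 11124, 8480.0 and 14271, and the groups overlapped.

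Genes of fatty acid synthesis were split, with 8 of 16 higher. Scd2, a desaturase, stood at 3803, 2453 and 3772 against 2090.5, 2041 and 2025, while Thrsp, a protein that promotes lipid synthesis, stood at 40.9, 31.5 and 48.1 against 58.0, 76.4 and 119. The cytokine Osm, at low levels, stood at 5.85, 2.63 and 2.67 against 10.1, 20.8 and 21.4. In these 3 genes the groups did not overlap, and none passed the test over all genes.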
